A study of Laccaria bicolor with 18 samples.

Results

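Transcripts of 6 gene models of the ectomycorrhizal basidiomycete *Laccaria bicolor*, 3 cyclins and 3 core histones, were followed through the caps and stipes of its basidiocarp. The cyclins are 449618, 658958 and 582420. The histones are HTB16201 (gene model 184986, an H2B), HFO16202 (191132, an H4) and HTA16205 (192658, an H2A). They were taken, by their identifiers, from the 23130 gene models of the genome as markers of the cell cycle. The choice was made with results of these libraries in view, and by mean read count the members are among the most abundant of their kind. The cyclins are the 3 with the highest mean read count of 7 annotated ones, and the histones are 3 of the 4 highest of 28. Cyclin 449618 held its place through late caps only. All 6 passed the filter on low counts, which left 16485 gene models for the tests.

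The material was strain S238N, harvested as mushrooms under inoculated Douglas fir in a nursery, so that no treatment or mutation separates the groups. Early, medium and late caps and early, medium and late stipes made 6 groups with 3 libraries each, labelled as biological replicates. The study's caption to its clustering of the basidiocarp samples counts fewer biological replicates than the libraries used here. The fits took every library as independent, which the sources do not settle. The labels do not say whether a cap and a stipe of the same number came from the same mushroom, or whether several mushrooms were pooled. The comparisons ask how tissue and age of the basidiocarp bear on these transcripts.

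The 18 libraries held between 38976106 and 90888294 reads counted on gene models. For comparisons between groups, counts were scaled by the TMM method and are given as CPM (reads relative to the scaled depth of the library). For comparisons between genes, which need a value per length, the deposited RPKM (reads relative to depth and transcript length) are given. Medium cap 3 and medium stipe 3 stood apart from the other libraries of their groups, with a biological coefficient of variation of 32.7% to 39.2% against them, while medium stipes 1 and 2 (4.16%) and late caps 2 and 3 (4.05%) were nearly alike. No defining marker gene of cap or stipe was at hand to check the labels. In such bulk tissue, fewer cells of a type and less RNA per cell cannot be told apart.

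Cyclins bind and switch on cyclin-dependent kinases, and those of the A and B types drive DNA synthesis and mitosis, while cyclins of the Pho80 family in the yeast *Saccharomyces cerevisiae* serve the response to phosphate and other nutrients. Histones H2A, H2B, H3 and H4 form the core around which DNA is wound in nucleosomes, and H1 binds the linker between them. In many eukaryotes most histone genes are transcribed while DNA is replicated, and some further copies, the replacement histones, are transcribed throughout. In agarics the cap bears the gills, in which basidia undergo meiosis and form spores, and the stipe lengthens largely by growth of its cells.

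The cyclin members differ in their annotation, which rests for most of them on the matching protein of *Coprinopsis cinerea*, another agaric. For 449618 it names a Pho80-like cyclin domain, for 658958 an N-terminal cyclin domain, and for 582420 an N-terminal cyclin domain beside a WD40-like repeat. None of the 3 matches carries the C-terminal cyclin domain that is named for 2 further cyclins, 583039 and 581783. Per length the histones and 2 of the cyclins were among the most abundant transcripts. HFO16202 averaged 954 RPKM over the 18 libraries, HTB16201 619 RPKM, HTA16205 396 RPKM, 658958 371 RPKM and 582420 174 RPKM, all within the highest 3.13% of gene models. Cyclin 449618 averaged 12.1 RPKM and ranked at 36.7%. At the edge of the choice, 449618 averaged 22.2 CPM and the next cyclin, 583039, 20.5 CPM. Late caps (mean 105 CPM) set this rank, as the other group means of 449618 ran from 4.26 to 8.50 CPM. Per length 449618 lay below 583039 (17.0 RPKM), 581783 (15.2 RPKM) and 441369 (13.2 RPKM). Among the histones HTA16205 averaged 239 CPM, just below HTB16202 (251 CPM), which was not a member and is named a histone by its RefSeq symbol only. Per length HTA16205 lay below the histones HFO16203 (501 RPKM), HFO16210 (434 RPKM) and HTB16202 (400 RPKM), none of them members.

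**Figure D1:**
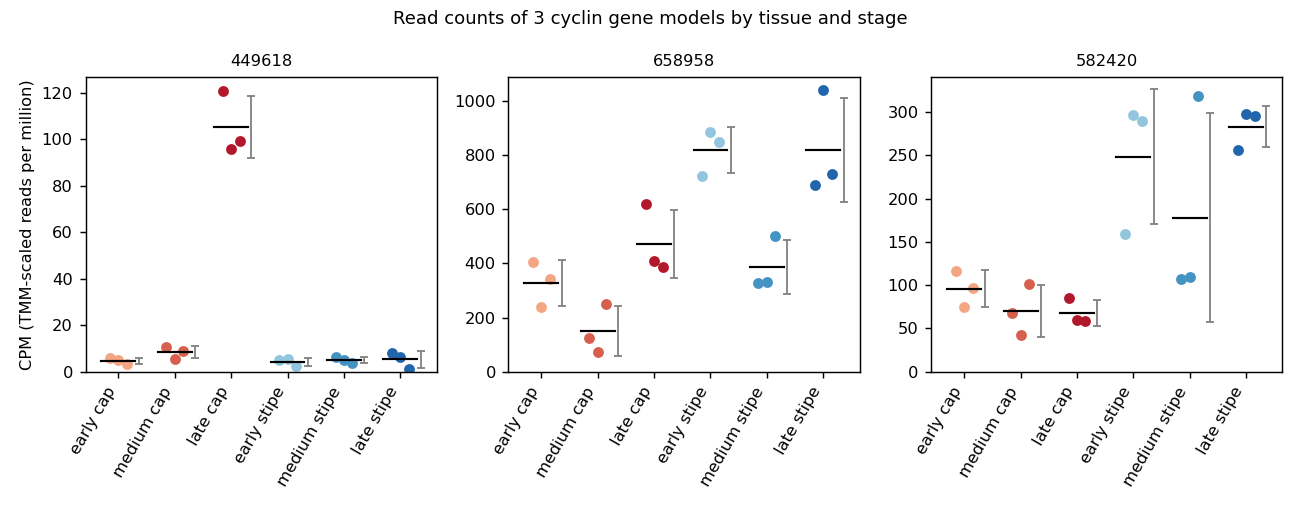
CPM (TMM-scaled) of the 3 cyclins in each library (points), with the group mean (black line) and 1 SD to each side of it (grey bar); caps are in red and stipes in blue, each from early to late. Late caps held the highest values of 449618 (95.8 to 121 CPM), and the stipes of 658958 and 582420 lay above the caps of the same stage.

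Cyclin 449618, the Pho80-like cyclin, was highest in late caps. Early caps had 5.81, 5.14 and 3.13 CPM, against 5.03, 5.37 and 2.38 CPM in early stipes. Medium caps had 10.8, 5.62 and 9.08 CPM, against 6.23, 4.95 and 3.86 CPM in medium stipes. Late caps had 121, 95.8 and 99.4 CPM, against 8.13, 6.53 and 1.26 CPM in late stipes. All 3 late caps lay far above the 15 other libraries, whose groups, in the order of their means, each overlapped the next. The late caps held 5087 to 10532 reads of it and the late stipes 68 to 377. The part of depth in this comparison was not tested. The difference of late caps from late stipes was 19.9-fold (log2 fold change 4.32, SE 0.526). Here and throughout, adjusted p-values are those of the edgeR fit to the whole table after Benjamini-Hochberg correction, and SE is the standard error. A gene model is called where it differed by more than 1 on the log2 scale with an adjusted p under 0.05. Against medium caps late caps were 12.4-fold higher (3.63 ± 0.507 on the log2 scale, SE), and against early caps the log2 fold change was 4.49. These comparisons are given without a test, because the high level in late caps was known when the gene model was chosen. Between the tissues at the early stage it was 0.13 (95% interval -0.87 to 1.14) and at the medium stage 0.76 (-0.23 to 1.76), and neither was called. The stipe stages were not called either, and late stipes differed from early ones by a log2 fold change of 0.31 (-0.70 to 1.31).

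Cyclin 658958, the most abundant of the cyclins, was lower in caps than in stipes at the early and medium stage, and in each tissue its mean was lowest at the medium stage. Early caps had 404, 238 and 342 CPM, against 724, 885 and 849 CPM in early stipes. Medium caps had 125, 71.3 and 250.5 CPM, against 328, 332 and 503 CPM in medium stipes. Late caps had 618, 409.7 and 388 CPM, against 689, 1039.8 and 732 CPM in late stipes. At each stage every cap lay below every stipe, while early and late stipes overlapped. Caps were 2.50-fold lower than stipes at the early stage (log2 fold change -1.32, SE 0.368, adjusted p = 0.0319) and 2.60-fold lower at the medium stage (-1.38, SE 0.369, adjusted p = 0.0118). At the late stage the log2 fold change was -0.80 and was not called (adjusted p = 0.0798). Within the tissues it was 3.17-fold higher in late than in medium caps (1.66, SE 0.372, adjusted p = 0.00275) and 2.12-fold higher in late than in medium stipes (1.08, SE 0.366, adjusted p = 0.0297). Its interaction, which asks whether the late against early change differs between caps and stipes, was 0.52 (95% interval -0.56 to 1.61, adjusted p = 0.488).

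Some calls of 658958 rested on few libraries. That at the early stage was lost without early cap 2 (adjusted p = 0.168), early cap 3 (0.0845), early stipe 2 (0.101) or early stipe 3 (0.0731), or with nearly alike libraries summed (0.0532). That at the medium stage was lost without medium cap 1 (0.0544) or 2 (0.0548), or with only these groups in the fit (0.129), and that between late and medium stipes without medium stipe 1 (0.0992), medium stipe 2 (0.098) or late stipe 2 (0.108), or with nearly alike libraries summed (0.109). In the main edgeR fit neither medium against early caps (log2 fold change -1.14, adjusted p = 0.0991) nor medium against early stipes (-1.08, adjusted p = 0.0971) was called. DESeq2 with all libraries called both lower (adjusted p = 0.0296 in caps and 0.0318 in stipes). In edgeR without medium cap 3, medium caps were called lower than early caps (-1.76, adjusted p = 0.00272). Without medium stipe 3, medium stipes were called lower than early stipes (-1.31, adjusted p = 0.0469).

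Cyclin 582420, annotated with a WD40-like repeat beside its cyclin domain, was lower in caps than in stipes at all 3 stages. Early caps had 117, 74.6 and 96.2 CPM, against 159, 296 and 290.3 CPM in early stipes. Medium caps had 67.3, 42.1 and 101 CPM, against 107, 109 and 318 CPM in medium stipes. Late caps had 85.1, 59.7 and 59.0 CPM, against 256, 298 and 296 CPM in late stipes. No cap reached a stipe of its stage, although medium cap 3 came within a few CPM of medium stipes 1 and 2. Late caps were 4.17-fold lower than late stipes (log2 fold change -2.06, SE 0.406, adjusted p = 0.000611). Early caps were 2.59-fold lower than early stipes (-1.37, SE 0.398, adjusted p = 0.0383), and medium caps 2.54-fold lower than medium stipes (-1.34, SE 0.397, adjusted p = 0.0193). No stage of either tissue was called, and late stipes differed from early stipes by 0.19 (95% interval -0.64 to 1.01).

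The late difference of 582420 was called under every alternative run, and the others were not. The early call was lost in 9 of 18 fits that left out a library, 5 of them a library of these groups, with adjusted p up to 0.178 without early cap 2. The medium call was lost without medium cap 1 (0.0645), medium cap 2 (0.104) or medium stipe 3 (-0.62, adjusted p = 0.145), and with only these groups in the fit (0.159). Without medium stipe 3 the medium stipes were instead called lower than early stipes (-1.20, adjusted p = 0.0305) and late stipes higher than medium stipes (1.39, adjusted p = 0.00439).

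The other 4 cyclins of the list followed 3 patterns. The study had selected several cyclins as regulated in fruiting bodies on these samples, so that the counts of the list are not independent evidence of a direction. Between late caps and late stipes 4 of all 7 were called higher in the cap and 2 lower (14.8% and 9.55% of all gene models), with a median log2 fold change of 1.95 beside -0.01 over all gene models tested. Cyclin 489029, annotated with a cyclin-like domain, averaged 47.1 ± 2.20 CPM in late caps and 12.2 ± 2.12 CPM in late stipes (SD, n = 3 each). Cyclin 583039, with N- and C-terminal cyclin domains, averaged 51.1 ± 3.19 CPM in late caps and 8.80 ± 3.42 CPM in late stipes. Late caps exceeded late stipes, medium caps and early caps in both, as in 449618. Cyclin 581783, which has the same domains as 583039, did otherwise and fell with age in both tissues. In caps it averaged 11.2 ± 0.341 CPM at the late and 22.9 ± 4.92 CPM at the early stage, and in stipes 2.45 ± 0.284 CPM (late) and 15.9 ± 5.48 CPM (early) (log2 fold changes -1.03 in caps and -2.70 in stipes, adjusted p = 0.00342 and 1.55e-06). Cyclin 441369 rose in stipes, with 18.9 ± 3.72 CPM in late and 6.55 ± 0.772 CPM in early ones (1.53, adjusted p = 2.08e-05). It rose less in caps, with 8.68 ± 0.339 CPM in late and 5.27 ± 0.933 CPM in early ones (0.72, adjusted p = 0.00907), below the fold bound.

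**Figure D2:**
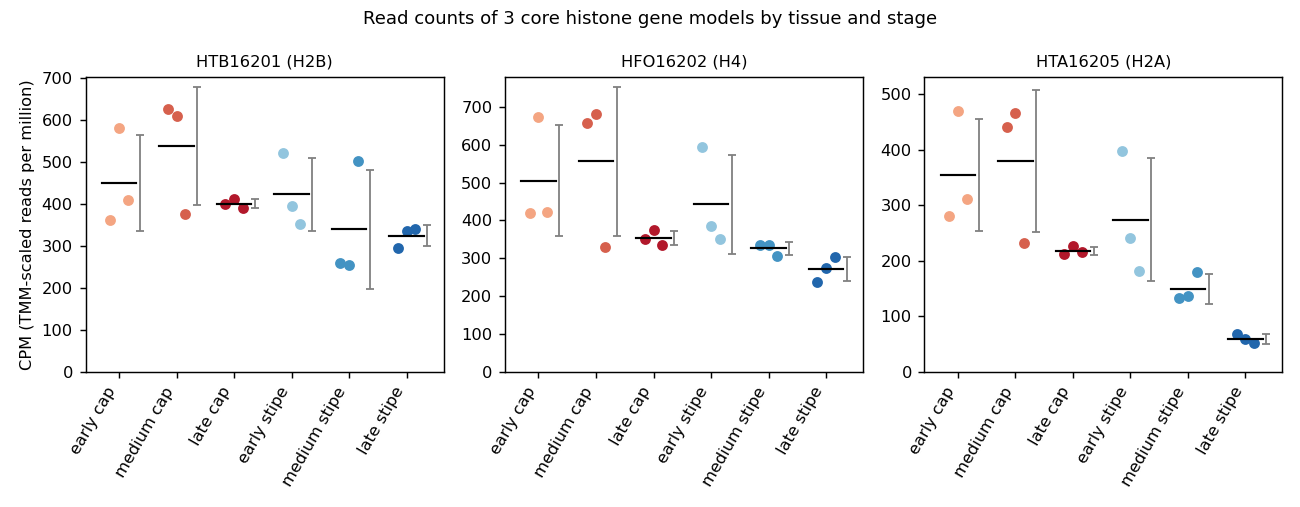
CPM of the 3 core histones in each library (points), with the group mean (black line) and 1 SD to each side of it (grey bar); caps are in red and stipes in blue, each from early to late. HTA16205 was lowest in late stipes (51.4 to 68.7 CPM), while the groups of HTB16201 and HFO16202 stayed within a narrower range.

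Histone HTB16201 had the narrowest range of group means among the members. Early caps had 362, 579.7 and 409 CPM, against 520.1, 395 and 353 CPM in early stipes. In medium caps it had 627, 609.9 and 376 CPM, against 259.8, 254 and 502 CPM in medium stipes. In late caps it had 399, 411 and 391 CPM, against 294, 336 and 340.3 CPM in late stipes. Late caps and late stipes did not overlap, but at the other stages the tissues did, through medium cap 3 and medium stipe 3 at the medium stage. The highest group mean (medium caps) was 1.66 times the lowest (late stipes). No comparison was called, and the log2 fold change of late caps over late stipes was 0.31 (95% interval -0.28 to 0.90, adjusted p = 0.381). At the medium stage it was 0.67 (0.07 to 1.26, adjusted p = 0.0826), and without medium stipe 3 it was 1.07 and was called (adjusted p = 0.00704). Late stipes differed from early stipes by -0.39 (-0.98 to 0.21).

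Histone HFO16202 was next in this order. It had 419.6, 675 and 423 CPM in early caps, against 593, 385 and 349.8 CPM in early stipes. Medium caps held 659, 681 and 329 CPM, against 336, 336 and 307 CPM in medium stipes. Late caps held 351, 373 and 336 CPM, against 238, 273 and 302 CPM in late stipes. Early cap 2, medium caps 1 and 2 and early stipe 1 stood above the rest of the libraries, and late stipes were lowest. The highest group mean was 2.05 times the lowest. No comparison passed both bounds. The log2 fold change of medium caps over medium stipes was 0.77 (95% interval 0.18 to 1.35) with an adjusted p of 0.046, below the fold bound, and without medium cap 3 it was 1.01 and was called (adjusted p = 0.00379). Late stipes against early stipes gave -0.71 (-1.29 to -0.12, adjusted p = 0.0499), also below the fold bound.

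Histone HTA16205 fell in the ageing stipe. Stipes had 397, 241 and 182 CPM at the early stage, 132, 136 and 179.7 CPM at the medium stage and 68.7, 58.3 and 51.4 CPM at the late stage. All late stipes lay below all medium stipes, and these below all early stipes. Caps had 281, 469 and 311 CPM at the early stage, 441, 465 and 232 CPM at the medium stage and 212, 226 and 216 CPM at the late stage. Late caps were below every early and medium cap but above every late stipe. In late stipes it was 4.60-fold lower than in early stipes (log2 fold change -2.20, SE 0.309, adjusted p = 4.78e-05) and 2.51-fold lower than in medium stipes (-1.33, SE 0.301, adjusted p = 0.00289). Caps exceeded stipes 3.67-fold at the late stage (1.87, SE 0.305, adjusted p = 0.000124) and 2.54-fold at the medium stage (1.35, SE 0.30, adjusted p = 0.00444). The medium call was lost with only these groups in the fit (adjusted p = 0.0703). At the early stage the difference was 0.37 (95% interval -0.26 to 0.996). Late caps against early caps gave -0.70 (adjusted p = 0.0774), so that the interaction was 1.5 (SE 0.420, adjusted p = 0.0179). Without early stipe 1 the interaction was 1.16 and was no longer called (adjusted p = 0.0527). Without medium cap 3 late caps were called lower than medium caps (-1.004, adjusted p = 0.00876), and without early stipe 3 medium stipes lower than early stipes (-1.10, adjusted p = 0.043).

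**Figure D3:**
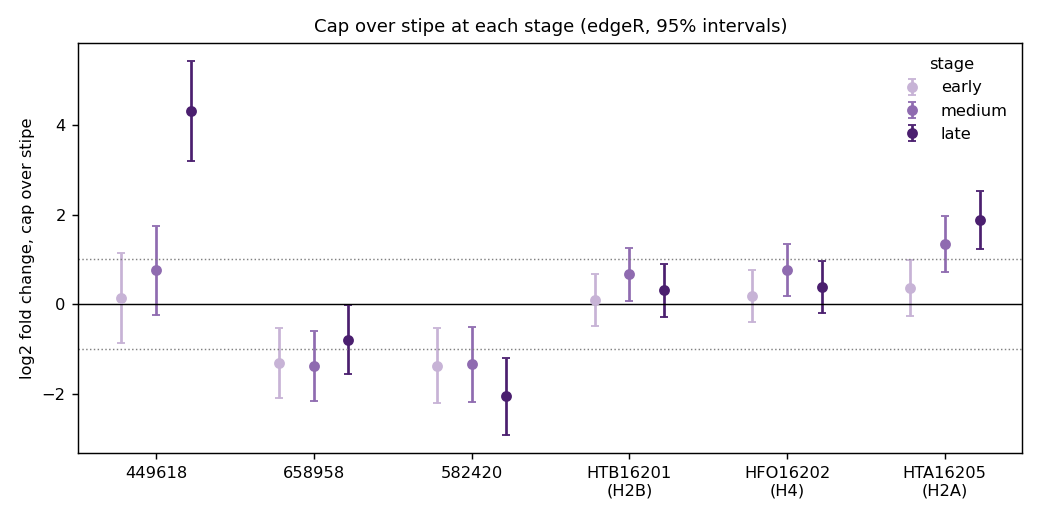
Log2 fold change of cap over stipe for each member at the early, medium and late stage, with the 95% interval of the edgeR fit to 18 libraries; dotted lines mark the bound of 1 to each side of 0. Cyclin 449618 and HTA16205 lay above 0 at the late stage (4.32 and 1.87), while cyclins 658958 and 582420 lay below 0 at all 3 stages.

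Set against all gene models, calls among the members were not frequent in every comparison. Because the members were chosen with results in view, their counts are descriptions. In late caps against late stipes, 14.8% of gene models were called higher and 9.55% lower, and of the members 2 were higher and 1 was lower. In medium caps against medium stipes the background was 6.46% higher and 5.03% lower, with 1 member higher and 2 lower, and in early caps against early stipes 2.17% and 2.98%, with 0 and 2.

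Between cap stages, the background of late against early caps was 9.24% higher and 6.11% lower, with 1 member (449618) higher. Late against medium caps had 9.14% higher and 5.79% lower, with 2 members higher, and medium against early caps 1.08% and 0.934%, with 0 members called (1 at an unadjusted p under 0.05 in edgeR, and 1 called by DESeq2). Between stipe stages, late against early had 7.61% higher and 11.6% lower, with 1 member lower, and late against medium had 6.19% and 9.35%, with 1 member higher and 1 lower. Medium against early stipes had 0.886% and 1.61%, with 0 members called (2 at an unadjusted p under 0.05 in edgeR, and 1 called by DESeq2). The shares are those of adjusted edgeR calls. For unadjusted p and for DESeq2 no share of all gene models was counted, so those member counts cannot be judged against one. In the interaction, 9.82% were higher and 4.62% lower, with 2 members higher, 449618 (4.18, SE 0.686) and HTA16205. Every count above that takes in late caps includes 449618, whose level there the choice had used. Some of these comparisons share libraries, so that their counts are not independent.

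The member histones stood within a family that split in late stipes, with fewer of them called, also in both directions, between late and early caps. Of 28 histone gene models, 22 came from the study's annotation, with the nucleosome term or a linker histone domain, and 6 were added by RefSeq symbol. By symbol 6 were H2A, 2 H2B, 5 H3, 5 H4 and 2 H1, and 8 had no symbol. In late against early stipes 14 of the 28 were lower and 5 higher (11.6% and 7.61% of all gene models), with a median log2 fold change of -1.20 beside -0.01 over all gene models. In late caps against late stipes 13 were higher and 3 lower (14.8% and 9.55% of all, median 1.01), and in medium caps against medium stipes 13 were higher and 2 lower (6.46% and 5.03% of all, median 1.11). In late against early caps 2 were higher and 5 lower (9.24% and 6.11% of all, median -0.33), and in early caps against early stipes the median was 0.24.

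The largest differences were of H3. HTR16206 averaged 8.76 ± 4.25 CPM in late stipes and 198 ± 84.5 CPM in early stipes (SD, n = 3 each). HTR16202 averaged 6.35 ± 4.08 CPM in late and 130 ± 59.4 CPM in early stipes (log2 fold changes -4.50 and -4.36). Both were named for their wide range of group means, so these differences are given without a test. In late caps these transcripts averaged 145 ± 1.21 CPM (HTR16206) and 136 ± 3.25 CPM (HTR16202). HTB16202, the other H2B, and HTA16203, an H2A, fell likewise in late against early stipes (-2.98 and -3.61, adjusted p = 2.81e-06 and 1.48e-06).

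Others rose where these fell. HTR16205 and HON16201 were named after their values were seen, so their differences are given without a test. HTR16205, an H3, averaged 203 ± 44.7 CPM in late stipes and 47.0 ± 10.3 CPM in early stipes (log2 fold change 2.11). It rose in caps too, with 56.6 ± 2.07 CPM at the late and 27.5 ± 1.89 CPM at the early stage (1.04). HON16201, an H1, averaged 199 ± 24.9 CPM in late stipes and 65.6 ± 17.1 CPM in early stipes (1.60). The H4 HFO16210 was highest in late caps, with 424 ± 27.8 CPM against 168 ± 37.1 CPM in early caps (1.34, adjusted p = 0.0124), and rose also in late against early stipes (1.23, adjusted p = 0.0162). Of the 8 histone gene models without a symbol, the highest averaged 6.25 CPM over the 18 libraries. In late against early stipes these low-count gene models made up 2 of the 5 histones called higher and 4 of the 14 called lower.

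**Figure D4:**
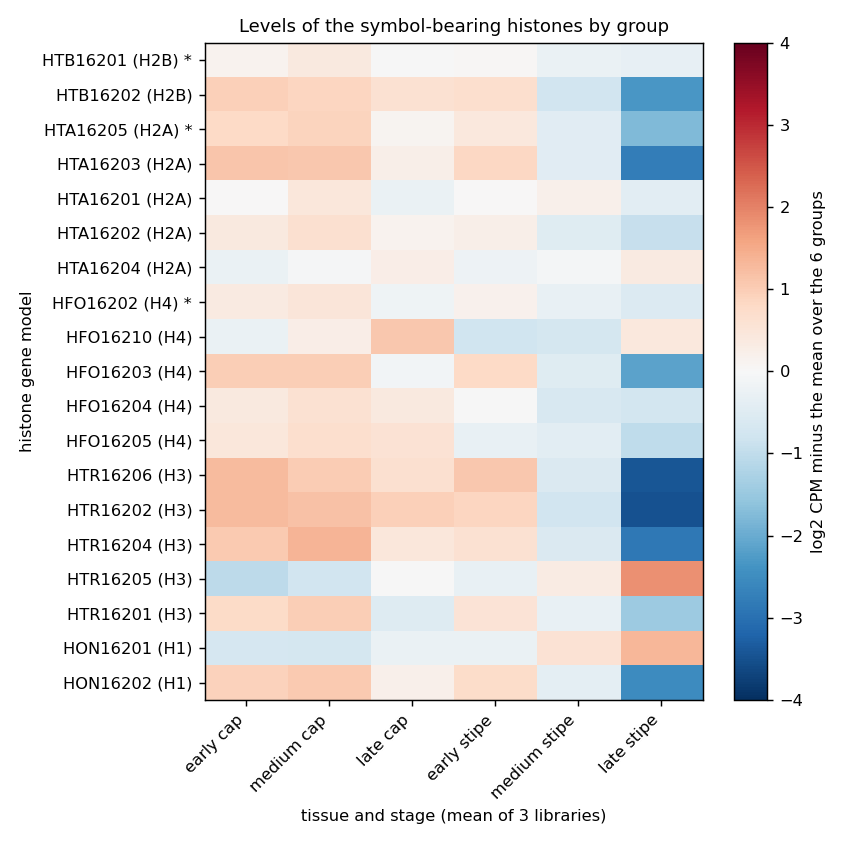
Level of the 19 histones with a symbol and a mean above 1 CPM, as log2 CPM of each group mean minus the mean over the 6 groups; columns are caps and then stipes from early to late, rows are grouped by class, and a star marks the members. In late stipes HTR16206 and HTR16202 (8.76 and 6.35 CPM) were far below, and HTR16205 and HON16201 (203 and 199 CPM) above, their own means.

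Measured per length, the make-up of each histone class differed in late stipes from early stipes. That of H4 differed between late and early caps as well. The summed RPKM of H2B was 549 ± 52.6 in late stipes, against 1138 ± 313 in early stipes and 1054 ± 35.5 in late caps (SD, n = 3 each). In medium stipes it was 676 ± 180 (565 to 884), which overlapped late stipes (512 to 609). HTB16201 made up 88.5 ± 1.55% of it in late stipes, against 56.8 ± 4.04% in early stipes and 55.6 ± 0.594% in late caps. The groups did not overlap (86.8% to 89.7% in late stipes, against 53.3% to 61.2% in early stipes).

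In H2A the summed RPKM was 451 ± 53.0 in late stipes, against 825 ± 89.0 in medium stipes, 1355 ± 460 in early stipes and 1045 ± 44.8 in late caps. HTA16205 was 21.8 ± 3.12% of it in late stipes, against 33.1 ± 2.45% in early stipes and 33.6 ± 0.144% in late caps. HTA16201, an H2A named after its values were seen and not called in any comparison, was 37.9 ± 4.64% in late stipes and 17.6 ± 3.26% in early stipes.

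In H4 the summed RPKM was 1390 ± 205 in late stipes, against 2218 ± 644 in early stipes. Medium stipes (1432.5 ± 71.8) overlapped late stipes. HFO16202 made up 46.1 ± 9.33% in late stipes and 46.7 ± 1.78% in early stipes, so that its share differed by less than the spread between libraries. In caps its share was 34.4 ± 0.785% at the late stage and 44.3 ± 1.31% at the early stage. HFO16210 was 36.2 ± 10.6% of H4 in late stipes and 10.7 ± 2.90% in early stipes, with 34.7 ± 0.335% in late caps and 12.7 ± 3.36% in early caps. HFO16203, an H4 named after its values were seen, was 6.51 ± 1.49% in late stipes, against 30.7 ± 3.18% in early stipes. In caps it was 15.3 ± 0.174% at the late and 29.0 ± 4.1% at the early stage.

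Among the classes without a member, HTR16205 was 82.1 ± 6.69% of H3 in late stipes, against 8.02 ± 4.44% in early stipes, while HON16201 was 95.9 ± 0.755% of H1 in late stipes and 46.1 ± 14.6% in early stipes. The summed RPKM of H3 was 980 ± 372 in early, 419 ± 40.1 in medium and 353 ± 18.6 in late stipes. That of H1 was 186 ± 24.2, 192 ± 3.64 and 263 ± 15.9 in the same order. Reads could match several places in the mapping, and whether unique or total reads were deposited is not given in the sources used here. Near-identical histone copies can therefore share reads, and their levels and shares are uncertain to that extent; sharing was not tested. Differences in these sums and shares were not tested.

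By RefSeq, each histone member lies next to a histone of another class, and the levels of the paired genes lay farther apart in late stipes. The pairs were looked at after values had been seen. The RPKM ratio of HTB16201 to its neighbour HTA16203 was 10.7, 14.5 and 18 in late stipes, against 1.25, 1.52 and 1.99 in early stipes. In medium stipes it was 1.97, 1.98 and 5.73, with medium stipe 3 above the others, and in late caps 2.15, 2.15 and 2.13.

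The ratio of HFO16202 to its neighbour HTR16202 was 22.6, 52.2 and 110 in late stipes, against 3.14, 3.34 and 4.66 in early stipes, and it was 2.64, 2.76 and 2.60 in late caps. In medium stipes it was 6.97, 7.04 and 12.0, so that the 3 stipe stages did not overlap. The ratio of HTA16205 to its neighbour HTB16202 moved least, with 1.68, 1.66 and 1.36 in late stipes, against 0.958, 0.852 and 0.896 in early stipes, and medium stipe 3 (2.07) was the highest of all libraries. Among the members themselves, the RPKM ratio of HTA16205 to HTB16201 was 0.256, 0.191 and 0.166 in late stipes, against 0.839, 0.672 and 0.568 in early stipes, without overlap (difference of the log2 ratio -1.77). An exact two-sided permutation test gave p = 0.1, the smallest that 3 against 3 can give. The lack of overlap fixes this p, so it adds nothing to the ratios. The same test was also run on other member ratios and groups.

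**Figure D5:**
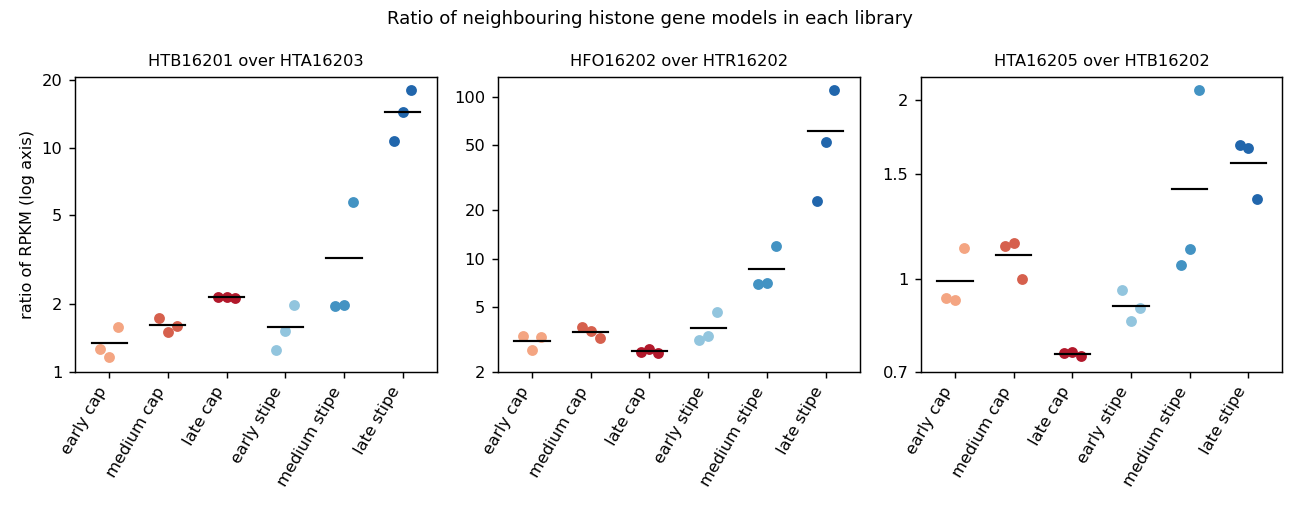
Ratio of the deposited RPKM of each histone member to that of its neighbouring histone gene model in each library (points) on a log axis, with the group mean of the ratios (black line); caps are in red and stipes in blue, each from early to late. The ratios of HTB16201 and HFO16202 to their neighbours were highest in late stipes (10.7 to 18 and 22.6 to 110), while all late caps lay between 2.13 and 2.76.

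Further gene models of the cell cycle were described beside the members, in lists made from the study's annotations, parts of which the study had selected as regulated in fruiting bodies on these samples. Of 7 gene models of DNA replication, 4 fell in late against early stipes (11.6% of all gene models, median log2 fold change -1.20 beside -0.01 over all), while between late caps and late stipes 4 were higher in the cap and 1 lower (14.8% and 9.55% of all, median 1.09 beside -0.01). LbRNRbeta, the small subunit of ribonucleotide reductase, which makes the building blocks of DNA, averaged 11.3 ± 4.92 CPM in late stipes and 188 ± 74.4 CPM in early stipes (-4.05, adjusted p = 5.42e-07), and 136 ± 3.91 CPM in late caps. The large subunit LbRNRalpha1, added after the data were seen, was not called in any comparison and averaged 62.2 ± 6.06 CPM in late stipes and 102 ± 33.0 CPM in early stipes.

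Of 6 gene models of chromosome segregation, 4 were lower and 2 higher in late than in early stipes (11.6% and 7.61% of all, median -2.28). Among those lower was a kinesin, 297780 (9.70 ± 2.05 CPM in late stipes, 50.7 ± 14.3 CPM in early stipes). Among those higher was 300643, with a domain of the cohesin subunits Rad21 and Rec8, which hold sister chromatids together. In stipes it averaged 62.7 ± 3.92 CPM at the late and 13.1 ± 2.0 CPM at the early stage (2.26, adjusted p = 3.08e-07), and in caps 51.9 ± 1.51 CPM at the late and 19.1 ± 1.65 CPM at the early stage (1.44, adjusted p = 9.39e-06).

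Of 3 septins, which form rings and filaments at sites of division and growth, all 3 fell in late against early stipes (11.6% of all, median -1.81), as did 1 in late against early caps (6.11% of all). Of 7 gene models annotated with cyclin-dependent kinase activity, the partners of cyclins, 1 was higher and 1 lower in late caps against late stipes (median log2 fold change -0.68), near the 14.8% and 9.55% of all gene models, and 2 were higher in late than in medium caps (9.14% of all, median 0.56). One of these, 454760, was called higher in late than in medium caps, with 118 ± 10.1 CPM in late and 58.5 ± 26.4 CPM in medium caps (1.02, adjusted p = 0.00335).

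The gene models whose pattern was most like that of a member were ranked by Pearson's r of log2(CPM + 1) over the 18 libraries, with no test, since the points share groups and libraries. For 449618 these were 588257 (r = 0.985) and 294445 (0.979), both annotated with a protein kinase domain, and 489861 (0.983), which has no annotated function. For 658958 they were 395214 (0.955), a bZIP transcription factor, 453537 (0.954) and 293988 (0.941). For 582420 the highest r was 0.963 (704824), for HTB16201 0.917 (709844), for HFO16202 0.925 (321528) and for HTA16205 0.984 (568492).

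Within the lists, where likeness alone chose the names, 449618 was most like cyclin 489029 (r = 0.926) and 583039 (0.858), and the cyclins 658958 and 582420 had r = 0.793 with each other. HTA16205 was most like HFO16203 (0.976), HTA16203 (0.972) and HTR16204 (0.967), and the cyclin most like it was 581783 (0.964), while its r with HTB16201 was 0.743. HFO16202 was most like HTA16202 (0.915), and HTB16201 was most like HFO16204 (0.825).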

How the data were processed

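Per the labels and the study's methods, stranded libraries of polyadenylated RNA were sequenced as paired reads on a HiSeq2000, and after trimming, the authors mapped the reads against *L. bicolor* v2 reference transcripts with CLC Genomics Workbench 8. The authors deposited read counts and RPKM for each library. Whether unique or total reads were counted, and the use of strand, are not given in the sources used here.

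Counts of 18 libraries (3 in each of 6 groups) were fitted together in edgeR 4.0.16 (R 4.3.3) with filterByExpr, TMM scaling and a robust quasi-likelihood fit, which shares 1 estimate of the spread. Calls needed a difference of more than 1 on the log2 scale and an adjusted p (Benjamini-Hochberg, over 16485 gene models) under 0.05. Deposited RPKM served for levels between genes, shares and ratios. Intervals are 95% intervals of the fit, and p-values weigh a difference against the spread between these libraries. That spread is shared by all 6 groups, although the libraries of some groups were less alike than those of others. The fit was also run on simulated counts with known changes. There all gene models had the same spread, and no library stood apart or was nearly alike another. That run therefore does not show how the fit handles such libraries here.

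Members and lists were chosen with earlier results of these data known. Besides the members, the text names in each list called gene models, at most the 3 with the highest mean CPM and the 2 with the widest range of group means, and the 3 most alike gene models of a member; exceptions are marked. Symbols came from a RefSeq table (assembly V1.0 of another build), matched by gene model number and used also for which genes neighbour each other, with no coordinates given; it held 2 histone symbols without a gene model in the files. Alternatives were DESeq2 1.42.0, RLE scaling, TMM without the 50 most abundant gene models, other filters, a replicate block, only the groups compared, nearly alike libraries summed, no minimum fold and each library left out. Promoter motifs were not analysed here. Same-numbered libraries deviated together (r above 0.1) in 11 of 45 pairs over all groups. Among the 9 pairs of a cap and a stipe of the same stage, 1 did so (r from -0.613 to 0.24). The numbers were therefore not taken to pair the libraries.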

Additional observations from a re-analysis of the deposited data

Results flagged for a closer look

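The change of late against early basidiocarps differed between caps and stipes in 2 members, by the interaction term of the edgeR fit. The value of cyclin 449618 is a description only, because its high level in late caps was known when it was chosen. For cyclin 449618 the change in caps exceeded that in stipes by 4.18 on the log2 scale, with all 3 late caps above every early cap and late stipes overlapping early stipes. For the H2A histone HTA16205 the difference was 1.5 (95% interval 0.62 to 2.39, adjusted p = 0.0179), with late stipes below every early stipe and late caps below every early cap. With 3 libraries in a group, no library was tested as an outlier.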

How the results depend on the processing

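The calls of 582420 in late caps against late stipes and of HTA16205 in late stipes held under every alternative run. Of 8 member calls between tissues, 5 were left when only the groups compared were fitted, and 6 to 9 when a library was left out. The 3 calls between cap stages became 3 to 5, the 3 between stipe stages 2 to 6, and the 2 of the interaction 1 to 2, when a library was left out. Without a library, the cyclins called in late caps against late stipes numbered 5 to 6, and the histones 15 to 17 there, 17 to 20 in late against early stipes and 5 to 7 in late against early caps. For the alternatives no share of all gene models was counted, so none of these counts can be judged against one. Differences near 0 changed sign, none of them a call. With the replicate block 449618 had -0.0564 in late against medium stipes and 582420 0.0388 in late against medium caps, and 582420 had 0.0821 there with nearly alike libraries summed. Cyclin 658958 had -1e-04 in late against early stipes with the filter on reads in every library of a group, and -0.0036 with only the groups compared. Without a library the ranges were -0.16 to 0.36 (early cap against early stipe), -0.0633 to 0.43 (medium against early stipes), -0.15 to 0.79 (late against early stipes) and -0.37 to 0.58 (late against medium stipes) for 449618, -0.19 to 0.12 for 658958 in late against early stipes, and -0.26 to 0.36 (late against medium caps) and -0.0464 to 0.35 (late against early stipes) for 582420. They were -0.14 to 0.25 (early cap against early stipe), -0.27 to 0.0758 (late against early caps) and -0.23 to 0.33 (late against medium stipes) for HTB16201, -0.0768 to 0.45 (early cap against early stipe), -0.021 to 0.38 (medium against early caps) and -0.06 to 0.46 (interaction) for HFO16202, and -0.0545 to 0.33 for HTA16205 in medium against early caps. The replicate block left all 8 member calls between tissues, 3 between cap stages, 3 between stipe stages and 2 in the interaction. By deposited RPKM the highest group of HFO16202 and HTA16205 was early caps, at 2.03 and 6.42 times the lowest. The causes were not tested.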
